A study of Mus musculus with 12 samples.

Results

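The genes described are 6 enzymes that write, oxidise or remove methyl groups on DNA cytosines: the methyltransferases Dnmt1 and Dnmt3a, the dioxygenases Tet1, Tet2 and Tet3, and the glycosylase Tdg. They were chosen by name, as reported miR-29 targets or partners of such targets. No rule on their values was used, but earlier results of these data were known when they were chosen. All 6 had a row among the 12145 genes of the deposited count table, and all 6 passed the filter on low counts over the 11 libraries used.

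RNA was sequenced from C57BL6 mouse cortical cultures, dissected at E16.5-E17.5 (embryonic days) and infected with lentivirus on day 6 in culture at a total multiplicity of infection of 2. On day 14 the cultures went through oxygen-glucose deprivation (OGD), a culture model of ischemia, for 3 h with 4 h of recovery, or were rinsed as a sham and kept in normoxia. The groups were OGD-miR-29 (OGD, virus expressing miR-29; n = 3), OGD-empty (OGD, control virus without the insert; n = 3), sham-miR-29 (n = 3) and sham-empty (n = 2). Each replicate was a culture dissected on its own day, and every group carried a lentivirus, so no uninfected culture enters. The promoter of the virus and the share of cells infected are not given by the labels or the design text, and no row was named for miR-29, so its level was not analysed here.

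Methylation of CG and other cytosines in neurons is laid down by Dnmt3a, while Dnmt1 copies CG methylation after replication. The TET enzymes oxidise the methyl group stepwise to hydroxymethyl-, formyl- and carboxylcytosine, the first of which is abundant in brain. Tdg cuts out the formyl and carboxyl forms, and base excision repair then puts back an unmethylated cytosine. The miR-29 family is known as a repressor of both the writing and the erasing enzymes, through sites in their 3′ untranslated regions (3′ UTRs). A microRNA pairs with such sites mainly through its seed, bases 2 to 8 from its 5′ end.

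The 3 mouse miR-29 forms share 1 seed, shown in capitals, so a seed match is a match to each of them; sequences are from RefSeq (GRCm38.p6).
mmu-miR-29a-3p: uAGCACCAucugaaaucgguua
mmu-miR-29b-3p: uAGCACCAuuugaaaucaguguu
mmu-miR-29c-3p: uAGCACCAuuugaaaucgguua

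The reverse complement of the seed, TGGTGCT, was searched on the transcript strand of the longest annotated 3′ UTR of each gene (GENCODE M21, GRCm38), and a match followed by A (TGGTGCTA) was counted as an 8-base match. The 8-base matches are printed because they are the longest pairing with the seed found in these genes. Each stands within its surroundings, with the match in capitals.
Dnmt3a, chr12:3911394-3911423, plus strand: ggggaggtagcTGGTGCTAgcaccagggtc
Dnmt3a, chr12:3911463-3911492, plus strand: gggtcccaagcTGGTGCTAattcctctcat
Tet1, chr10:62806031-62806060, minus strand: cttgaaggagaTGGTGCTAgctgaacaatt
Tet2, chr3:133466162-133466191, minus strand: ttaacattaaaTGGTGCTAcaaatggtgtt
Tet2, chr3:133465105-133465134, minus strand: tcacatcacgaTGGTGCTAcccagattgct
Tet3, chr6:83364325-83364354, minus strand: agtctaataaaTGGTGCTAtggtgtttcaa
Tet3, chr6:83363766-83363795, minus strand: ccgcttttagtTGGTGCTAaacttctccct
Tdg, chr10:82649666-82649695, plus strand: tgcattttccaTGGTGCTAcagacagcctg

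Matches were present in 5 of the 6 genes. Tet3 held 2 of 8 bases and 6 of 7 bases in a 3′ UTR of 5669 bases, and Tet1 held 1 and 6 in 7962 bases. Tet2 held 2 and 3 in 3058 bases, Dnmt3a 2 and 3 in 6696 bases, and Tdg 1 and 2 in 2079 bases. Dnmt1, whose 3′ UTR is 312 bases long, held 0. Of 10078 genes of the table with an annotated 3′ UTR, 16.7% held a 7- or 8-base match and 3.53% an 8-base match. Longer 3′ UTRs hold more matches, and among those within 25% of the same length 51.6% had a match for Tet1, 47.9% for Dnmt3a, 45.3% for Tet3, 26.9% for Tet2 and 19.5% for Tdg. Having at least as many matches as the named gene was rarer, at 0.113% for Tet2, 0.145% for Tet3, 0.3% for Tdg, 0.353% for Tet1 and 0.851% for Dnmt3a. These sets included the named gene itself and held 1772, 691, 1997, 283 and 470 genes, in the same order. For Tet3 and Tet1 no other gene of the set had as many matches. These genes were picked as reported targets, so the matches describe the list and give no separate evidence of targeting.

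**Figure D1:**
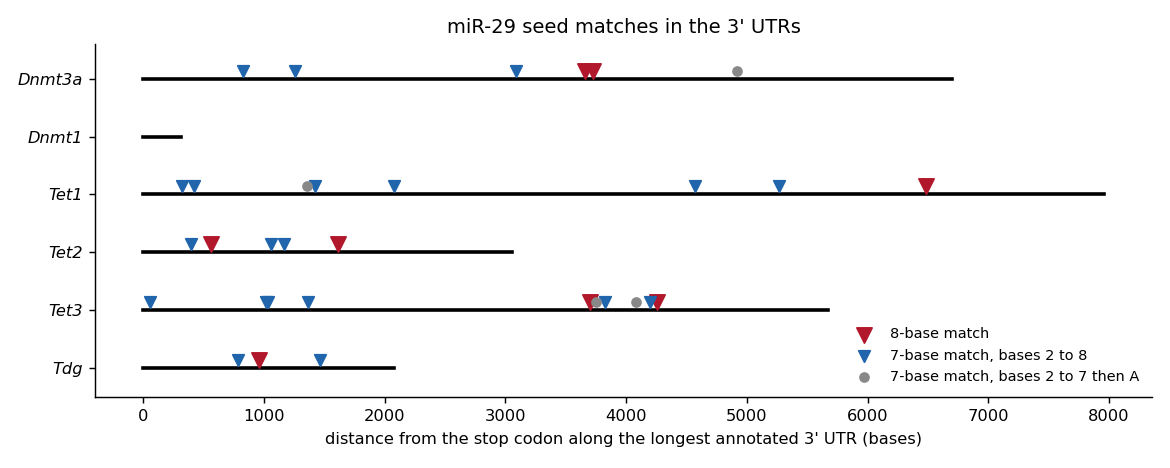
miR-29 seed matches along the longest annotated 3′ UTR of each gene. The horizontal axis is the distance from the stop codon in bases, each line spans the 3′ UTR and markers are matches of 3 kinds. Tet1 and Tet3 hold the most matches, 3 or more fall in Dnmt3a, Tet2 and Tdg, and the short 3′ UTR of Dnmt1 holds 0.

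The counts behind these genes were small. Library totals were 1337564 to 6616920, of which rows of the mitochondrial genome held 57.6% to 84.1%, leaving 231500 to 1362484 counts. The third sham-empty column summed to 22859, correlated with the other libraries at a Spearman coefficient of 0.0438 to 0.0978 across genes, and was left out. For 92.5% of 11947 genes compared, its value was how many same-strand genes the annotation places in the gene or up to 10 kb downstream. Reads could also be counted for more than 1 gene: mt-Tf had 551543 counts in a library where the neighbouring mt-Rnr1 had 551574. All 8 neuron markers had a row, the astrocyte markers Gfap and Sox9 had none, and 0 of 6 endothelial and mural markers had one. In bulk RNA, fewer cells of a type and less RNA per cell cannot be told apart.

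After OGD, all 3 TET genes were lower with the miR-29 virus than with the empty virus. Tet2 had 10.7, 11.8 and 7.21 CPM (counts scaled to library size by TMM) in OGD-miR-29 cultures, against 19.8, 30.3 and 18.2 CPM in OGD-empty cultures. Tet3, the TET gene with the highest level per kb of exon, had 19.7, 11.4 and 13.0 CPM in OGD-miR-29 and 32.9, 32.5 and 25.2 CPM in OGD-empty cultures. Tet1, which like Tet3 carries its own CpG-binding CXXC domain, had 8.63, 4.73 and 7.21 CPM in OGD-miR-29 and 13.9, 11.7 and 11.3 CPM in OGD-empty cultures. For each of the 3 genes every OGD-miR-29 library lay below every OGD-empty library, and so below its partner of the same day. These levels rest on few reads. In OGD-miR-29 cultures they were 58, 30 and 15 counts for Tet2, 107, 29 and 27 for Tet3 and 47, 12 and 15 for Tet1. In OGD-empty cultures they were 128, 67 and 34 for Tet2, 213, 72 and 47 for Tet3 and 90, 26 and 21 for Tet1.

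The log2 fold change of OGD-miR-29 over OGD-empty was -1.16 ± 0.27 (SE) for Tet2, with an adjusted p of 0.00311 by edgeR's quasi-likelihood test (Benjamini-Hochberg over 12119 genes). It was -1.01 ± 0.29 for Tet3 (adjusted p = 0.0110) and -0.82 ± 0.26 for Tet1 (adjusted p = 0.0190). The 3 TET genes thus passed the threshold of 0.05 and the other 3 enzymes did not, where 37.1% of all genes passed and 19.9% passed as lower. Groups that did not overlap, with all OGD-miR-29 libraries lower, were found for 4 of the 6 enzymes and for 25.2% of all genes. The median over the 6 was -0.57, beside 0.02 over all genes tested. The Tet2 call held without each library in turn, the highest adjusted p being 0.0184. Tet1 was not called without OGD-miR-29 replicate 2 (-0.63, adjusted p = 0.0854) or OGD-empty replicate 1 (-0.69, adjusted p = 0.0990), nor by DESeq2 (adjusted p = 0.0619). Tet3 was not called without OGD-miR-29 replicate 2 (-0.86, adjusted p = 0.0542).

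**Figure D2:**
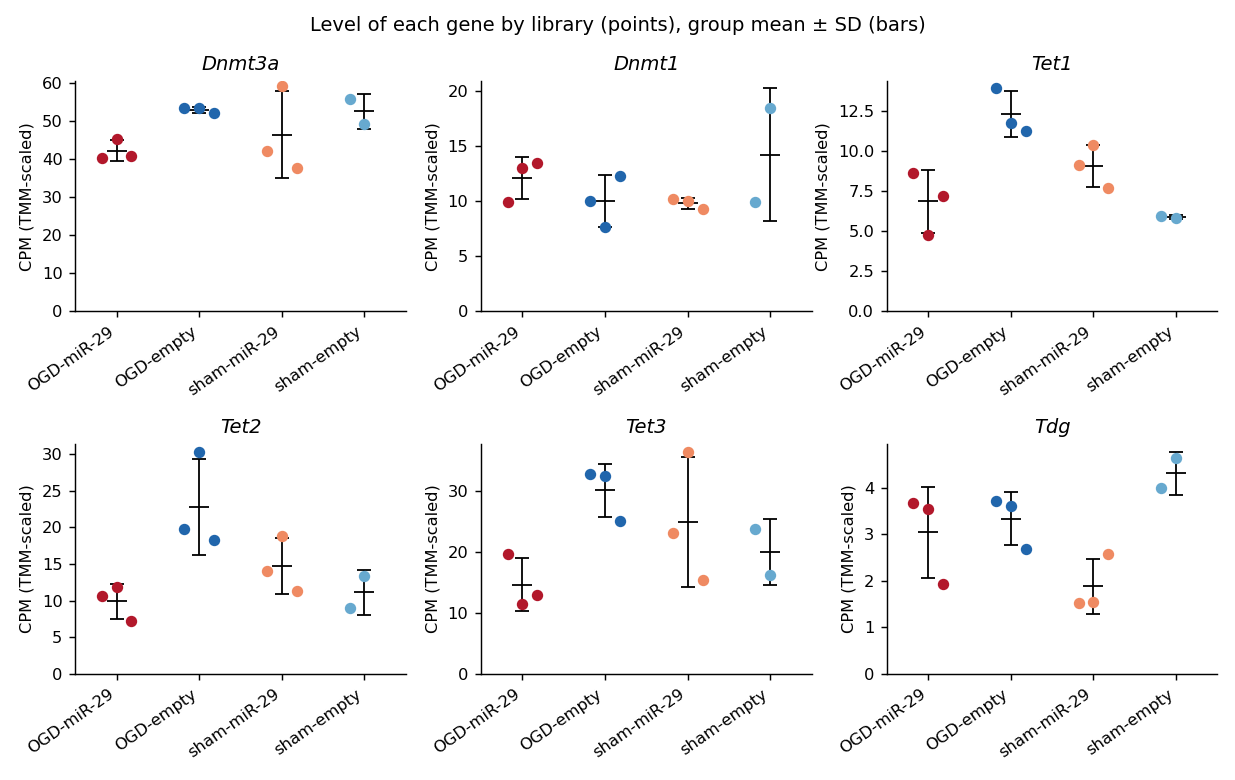
Level of each of the 6 genes in CPM (counts scaled to library size by TMM; vertical axis from 0) by group. Points are libraries and bars the group mean with its SD (n = 3, and n = 2 for sham-empty). Tet1, Tet2, Tet3 and Dnmt3a are lower in every OGD-miR-29 library than in every OGD-empty library, as were 25.2% of all genes. Dnmt1 and Tdg overlap.

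Gene length moved with this comparison across the whole table. Over 11924 genes with an annotated length, the log2 fold change of OGD-miR-29 over OGD-empty had a Pearson correlation of -0.50 and a Spearman correlation of -0.58 with the log10 span of the gene; this is across genes that share libraries, and is given without a test. The median span was 23 kb. Dnmt3a spans 108.4 kb (chr12:3806007-3914443, plus strand), Tet1 104.4 kb (chr10:62804570-62908996, minus), Tet3 96.7 kb (chr6:83362373-83459084, minus) and Tet2 81.5 kb (chr3:133463679-133545139, minus). Dnmt1 spans 52.7 kb (chr9:20907209-20959888, minus) and Tdg 21.0 kb (chr10:82629828-82650799, plus). At these spans the trend over all genes stood at a log2 fold change of -0.63 for Dnmt3a, -0.61 for Tet1, -0.57 for Tet3, -0.48 for Tet2, -0.28 for Dnmt1 and 0.12 for Tdg.

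A second fit, called the length-corrected block fit here, removed the length trend of each library and added dissection day as a replicate block. In it Tet2 was still called lower with the miR-29 virus after OGD, at -0.66 ± 0.22 (SE; edgeR adjusted p = 0.0235). Tet3 was at -0.46 ± 0.22 (adjusted p = 0.120) and Tet1 at -0.26 ± 0.25 (adjusted p = 0.480), and neither was called. That fit called 25.6% of 11924 genes. Without the block the same correction gave -0.67 for Tet2 (adjusted p = 0.0343), -0.45 for Tet3 (adjusted p = 0.161) and -0.25 for Tet1 (adjusted p = 0.515). Whether reads in introns were counted is not given in the sources used here, and what lay behind the length trend was not tested.

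**Figure D3:**
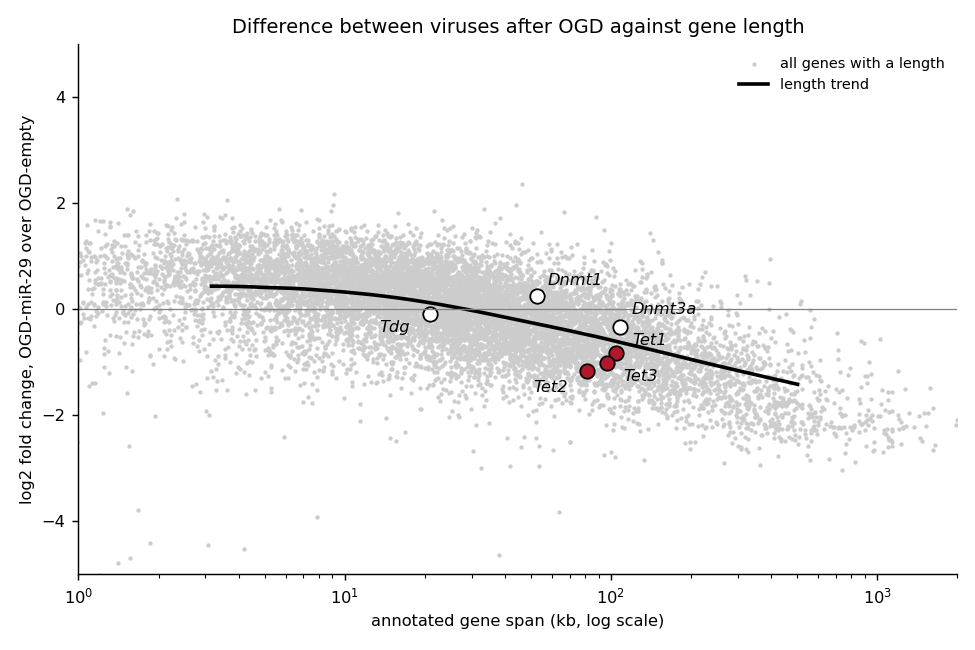
Log2 fold change of OGD-miR-29 over OGD-empty (vertical axis) against annotated gene span in kb (horizontal, log axis) for genes with a length; genes beyond the axes are not drawn. The line is the trend over all genes and the circles are the 6 enzymes, filled where the adjusted p was under 0.05. Tet2 lies farthest below the line, Tet3 and Tet1 nearer to it, and Dnmt3a and Dnmt1 above it.

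Dnmt3a, the enzyme that sets new methylation marks, had 40.2, 45.3 and 40.9 CPM in OGD-miR-29 cultures, against 53.4, 53.3 and 52.0 CPM in OGD-empty cultures. The groups did not overlap, but the log2 fold change of -0.33 ± 0.20 was not called (edgeR adjusted p = 0.191; 95% interval -0.74 to 0.08). Its direction turned to 0.28 ± 0.19 (adjusted p = 0.283) in the length-corrected block fit. In sham cultures it had 42.1, 59.2 and 37.5 CPM with the miR-29 virus and 55.7 and 49.2 CPM with the empty virus, and these groups overlapped. The gene had the most reads of the 6 enzymes, 85 to 346 per library after OGD and 56 to 154 after sham treatment.

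Dnmt1, the maintenance enzyme, had 9.92, 13.0 and 13.5 CPM in OGD-miR-29 and 10.0, 7.68 and 12.3 CPM in OGD-empty cultures. The groups overlapped, and the log2 fold change was 0.25 ± 0.26 (edgeR adjusted p = 0.471; 95% interval -0.29 to 0.80). In sham cultures the levels were 10.2, 9.99 and 9.26 CPM with the miR-29 virus and 9.95 and 18.5 CPM with the empty virus. This row may hold reads of Eif3g, a translation initiation factor gene on the same strand within 10 kb downstream, which held 282 counts over the 11 libraries against 351 for Dnmt1. The Eif3g row had 52, 30 and 27 counts in OGD-miR-29 libraries, where Dnmt1 had 54, 33 and 28. In OGD-empty libraries it had 42, 19 and 8 counts, where Dnmt1 had 65, 17 and 23. After OGD, Eif3g itself was higher with the miR-29 virus (0.77 ± 0.29, edgeR adjusted p = 0.0385), and how many reads the rows share was not tested.

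The Tet3 row has a neighbour of the same kind in Bola3, a mitochondrial iron-sulfur cluster gene on the opposite strand within 10 kb downstream. Bola3 held 437 counts over the 11 libraries against 763 for Tet3, and had 7.90, 8.27 and 7.21 CPM in OGD-miR-29 against 21.8, 14.9 and 15.01 CPM in OGD-empty cultures. Its log2 fold change was -1.18 ± 0.29 (edgeR adjusted p = 0.00469), close to that of Tet3. The strand setting of the counting is not given in the sources used here, so reads of the 2 genes cannot be told apart. No gene with a row lay within, or 10 kb downstream of, Dnmt3a, Tet1, Tet2 or Tdg.

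Tdg, the glycosylase, had the fewest reads, 4 to 24 counts per library. It had 3.67, 3.54 and 1.92 CPM in OGD-miR-29 and 3.71, 3.61 and 2.68 CPM in OGD-empty cultures, and the log2 fold change was -0.10 ± 0.37 (edgeR adjusted p = 0.852). In sham cultures it had 1.52, 1.54 and 2.57 CPM with the miR-29 virus, from 4, 4 and 10 counts. With the empty virus it had 3.98 and 4.63 CPM, from 4 and 8 counts. All sham-miR-29 libraries lay below both sham-empty libraries. The 95% interval of the log2 fold change was -2.25 to -0.05, with an unadjusted p of 0.0414 and an adjusted p of 1.00. A count of 4 has an exact Poisson interval of 1.09 to 10.24, so single libraries carry little weight here; such intervals cover counting error only.

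In empty-virus cultures the TET genes had higher values after OGD than after sham treatment, without a call. These comparisons share the OGD-empty libraries with those above. Tet1 had 11.3 to 13.9 CPM in OGD-empty and 5.97 and 5.79 CPM in sham-empty cultures, and its log2 fold change of OGD-empty over sham-empty was 1.09 ± 0.37 (edgeR adjusted p = 0.0834). Tet2 had 18.2 to 30.3 CPM in OGD-empty and 8.95 and 13.3 CPM in sham-empty cultures, with a log2 fold change of 0.97 ± 0.34 (adjusted p = 0.0968). Tet3 had 25.2 to 32.9 CPM in OGD-empty and 23.9 and 16.2 CPM in sham-empty cultures, with a log2 fold change of 0.64 ± 0.35 (adjusted p = 0.270), or 0.37 (adjusted p = 0.769) without sham-empty replicate 2. For these 3 genes every OGD-empty library was above both sham-empty libraries, as for 22.0% of all genes. Tdg was lower in every OGD-empty library than in both sham-empty libraries, as for 21.6% of all genes.

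By edgeR, 0 of the 6 enzymes were called in OGD-empty against sham-empty, where 5.09% of all genes were (1.48% higher, 3.61% lower). An unadjusted edgeR p under 0.05 was found for 2 enzymes and for 2876 of all 12119 genes, and DESeq2 called 0 enzymes. With dissection day as a block Tet2 was called (1.16 ± 0.30, adjusted p = 0.0190), and 11.3% of all genes were called in that fit. In the length-corrected block fit it was at 0.73 ± 0.30 (adjusted p = 0.150). The trend over all genes at the spans of Tet1, Tet2 and Tet3 was 0.45, 0.36 and 0.42 in this comparison, where the log2 fold change had a Pearson correlation of 0.45 and a Spearman correlation of 0.53 with log10 span across genes. The sham-empty group has only 2 libraries and 6 to 28 counts for a TET gene. In this comparison Dnmt1 was at -0.58 ± 0.32, Dnmt3a at 0.02 ± 0.23 and Tdg at -0.34 ± 0.49, with adjusted p-values of 0.270, 0.973 and 0.719. In the authors' deposited table for the same groups, Tet2 had a log2 fold change of 1.2212 with a false discovery rate of 0.2285, the lowest of the 6 enzymes; whether that table used the third sham-empty column is not stated.

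In cultures with the miR-29 virus, the TET genes were not called between OGD and sham. Tet3 had 11.4 to 19.7 CPM in OGD-miR-29 and 23.1, 36.5 and 15.4 CPM in sham-miR-29 cultures, and its log2 fold change of OGD-miR-29 over sham-miR-29 was -0.71 ± 0.29 (edgeR adjusted p = 0.506). Tet2 had 7.21 to 11.8 CPM in OGD-miR-29 and 14.03, 18.8 and 11.3 CPM in sham-miR-29 cultures, with a log2 fold change of -0.53 ± 0.28 (adjusted p = 0.568). Tet1 had 4.73 to 8.63 CPM in OGD-miR-29 and 9.10, 10.4 and 7.71 CPM in sham-miR-29 cultures, with a log2 fold change of -0.34 ± 0.27 (adjusted p = 0.703). These values moved with single libraries: without sham-miR-29 replicate 2 they were -0.32 for Tet3, -0.30 for Tet2 and -0.22 for Tet1, and Tet1 was at -0.15 without OGD-miR-29 replicate 2 and at -0.59 without OGD-miR-29 replicate 1. Without sham-miR-29 replicate 3 they were -0.98 for Tet3, -0.71 for Tet2 and -0.45 for Tet1. None of the 3 genes was called with any 1 library left out. Each was lower than its sham partner on all 3 days, but how many of all genes were so was not counted. The groups overlapped for all 6 enzymes, and among all genes 8.19% were without overlap as higher and 8.69% as lower. EdgeR called 0 of the 6 enzymes and 0.0165% of all genes here, and DESeq2 called 0 enzymes. An unadjusted edgeR p under 0.05 was found for 1 enzyme, Tet3 (0.0239), and for 1111 of all 12119 genes. Tdg was at 0.71 ± 0.41, Dnmt1 at 0.27 ± 0.26 and Dnmt3a at -0.13 ± 0.20, with adjusted p-values of 0.604, 0.749 and 0.850.

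Between the viruses in sham cultures no enzyme was called. The log2 fold changes of sham-miR-29 over sham-empty were 0.61 ± 0.38 for Tet1, 0.34 ± 0.35 for both Tet2 and Tet3, -0.18 ± 0.23 for Dnmt3a, -0.60 ± 0.32 for Dnmt1 and -1.15 ± 0.53 for Tdg. The 95% intervals of Tet2 and Tet3 ran from -0.39 to 1.07 and from -0.40 to 1.08. Across all genes edgeR and DESeq2 both called 0 of the genes in this comparison (0.00%), with 405 genes and 1 enzyme, Tdg, at an unadjusted edgeR p under 0.05. Groups did not overlap for Tet1, higher in sham-miR-29, and for Tdg, lower, as for 10.6% and 11.9% of all genes.

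Whether the OGD difference itself differed between the viruses was tested as an interaction. Tet2 had an interaction of -1.50 ± 0.44 on the log2 scale (edgeR adjusted p = 0.0400), the OGD effect being -0.53 with the miR-29 virus and 0.97 with the empty virus. Tet1 was at -1.43 ± 0.46 (adjusted p = 0.0555), Tet3 at -1.35 ± 0.45 (adjusted p = 0.0664), Tdg at 1.05 ± 0.64, Dnmt1 at 0.85 ± 0.41 and Dnmt3a at -0.15 ± 0.30. Of all genes, 8.38% were called in the interaction, 4.72% with a positive and 3.66% with a negative value. That count of 1015 genes rested on few libraries: it was 64 without sham-empty replicate 1 and 93, of which 89 were positive, without sham-empty replicate 2. It was 647 and 308 without sham-miR-29 replicates 1 and 2, 634 and 439 without OGD-miR-29 replicates 2 and 3, and 1009 to 1516 without any 1 of the other libraries. With dissection day as a block all 3 TET genes were called, at -1.70 ± 0.38 for Tet2 (adjusted p = 0.00786), -1.51 ± 0.41 for Tet3 (adjusted p = 0.0208) and -1.47 ± 0.47 for Tet1 (adjusted p = 0.0386), in a fit that called 15.4% of all genes.

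In the length-corrected block fit, no enzyme was called in the interaction; Tet2 was at -1.13 ± 0.38 (edgeR adjusted p = 0.0555). The Tet2 interaction also depended on single libraries. Its adjusted p was 0.0512 without OGD-miR-29 replicate 2, 0.0530 without replicate 1 and 0.0868 without replicate 3 of that group. It was 0.0661 without sham-miR-29 replicate 1 and 0.118 without replicate 2, and 0.148 and 0.127 without sham-empty replicates 1 and 2. All these values kept the negative direction, between -1.87 and -1.29.

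**Figure D4:**
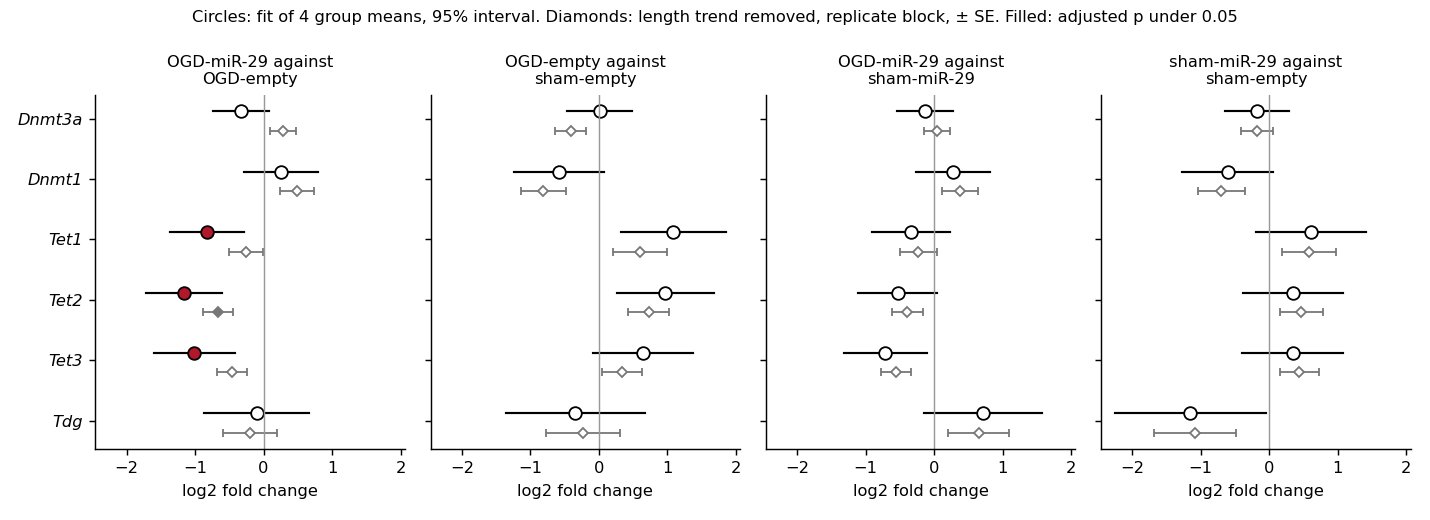
Log2 fold change (horizontal axis) of the 6 genes in 4 comparisons. Circles are the fit of 4 group means with its 95% interval, diamonds the length-corrected block fit (length trend removed, dissection day as a block) with its SE; filled marks had an adjusted p under 0.05. Filled circles occur for Tet1, Tet2 and Tet3 in OGD-miR-29 against OGD-empty, where Tet2 alone has a filled diamond.

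Per kb of annotated exon, the order of mean levels in OGD-miR-29 cultures was Dnmt3a at 2.53 CPM per kb, Dnmt1 at 1.64, Tet3 at 0.879, Tet2 at 0.586, Tdg at 0.567 and Tet1 at 0.444. The Dnmt3a range of 2.42 to 2.72 lay above that of Dnmt1, 1.34 to 1.82, which lay above that of Tet3, 0.684 to 1.18. The ranges of Tet3, Tet2, Tdg and Tet1 overlapped from one neighbour to the next. In OGD-empty cultures Tet3, at 1.81 CPM per kb, stood second after Dnmt3a, at 3.18, and Tet2 and Dnmt1 were level at 1.35 and 1.36. The order there ended with Tet1 at 0.796 and Tdg at 0.621, whose ranges of 0.728 to 0.899 and 0.499 to 0.69 did not overlap. In sham-empty cultures Tet1 had the lowest level of the 6, at 0.38 CPM per kb. Part of this order depends on the length used. Per kb of gene span, Tdg stood above Tet1 in OGD-empty cultures (0.159 and 0.118 CPM per kb) and above Tet2 in OGD-miR-29 cultures (0.145 and 0.121). Tet2 stood above Dnmt1 in OGD-empty cultures on that scale (0.279 and 0.190). Dnmt3a was highest in both groups on either scale. Which of these lengths matches the counting is unknown, as for intron reads above.

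The ratio of erasing to writing enzymes within a library does not depend on library scaling. Summed Tet1, Tet2 and Tet3 counts per summed Dnmt1 and Dnmt3a count were 0.78, 0.48 and 0.50 in OGD-miR-29 libraries and 1.05, 1.22 and 0.85 in OGD-empty libraries. They were 0.88, 0.95 and 0.74 in sham-miR-29 libraries and 0.59 and 0.52 in sham-empty libraries. The OGD-empty ratios were above all OGD-miR-29 ratios and above both sham-empty ratios. With Dnmt3a alone below the line, which avoids reads of Eif3g, the ratios were 0.97, 0.62 and 0.67 in OGD-miR-29 libraries and at least 1.05 in each OGD-empty library, again without overlap. On this scale they were 1.1, 1.11 and 0.92 in sham-miR-29 libraries, which overlapped OGD-empty, and 0.7 and 0.72 in sham-empty libraries. The Tet3 counts above the line may still hold reads of Bola3. These ratios restate the values above and carry no test of their own.

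Across the 11 libraries, Tet1 and Tet3 varied most alike among pairs of the 6 enzymes, with a root mean square difference of centred log2 CPM of 0.31. It was 0.38 for Tet2 with either of them and for Dnmt1 with Dnmt3a, 0.40 to 0.45 for Dnmt3a with the TET genes, and 0.65 to 0.74 for Dnmt1 with the TET genes. Tdg, the gene with the fewest counts, was at 0.44 with Dnmt3a, 0.48 with Dnmt1 and 0.67 to 0.71 with the TET genes. Among 11556 genes outside the lists, those nearest to Tet2 were Gm26749, Wdfy3 and D14Abb1e, at 0.161 to 0.167 against a median of 0.646 over all. Nearest to Tet3 were Dcx, Psd3 and Gm11199, at 0.167 to 0.176 (median 0.648), and among the nearest to Tet1 were Hnrnpu and Gm26533, at 0.157 and 0.161 (median 0.578). Nearest to Dnmt1 were Plek2, Slx4 and Zfp607, at 0.179 to 0.186 (median 0.498). Among the nearest to Dnmt3a were mmu-mir-7031 and a row whose symbol had been turned into the date 11-Sep, at 0.112 and 0.117 (median 0.462). This likeness describes the libraries, which share depth and day, and carries no test. Tdg had too few counts for the search over other genes.

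Some cell type markers differed in the same comparison, and not all in the same direction. The summed CPM of the 8 neuron markers was 742.0 to 872.6 in OGD-miR-29 cultures and 1042.1 to 1308.8 in OGD-empty cultures. Map2 (mean 174 against 390 CPM) and Syt1 (85.3 against 304 CPM) weigh heavily in that sum. By edgeR, 3 neuron markers were called higher (Tubb3, Nefl and Nefm) and 4 lower (Map2, Rbfox3, Snap25 and Syt1). Of all genes, 17.2% were called higher and 19.9% lower. In the length-corrected block fit, which called 25.6% of 11924 genes, 4 neuron markers were called higher and 0 lower. The 4 lower calls, of genes that span 69 to 513.3 kb, were lost there, at -0.11 for Map2, -0.24 for Rbfox3, -0.23 for Snap25 and -0.38 for Syt1 (edgeR adjusted p = 0.759, 0.460, 0.375 and 0.179). The 4 microglia markers with a row summed to 36.2 to 42.8 CPM in OGD-miR-29 and 22.0 to 30.0 CPM in OGD-empty cultures, and C1qa, P2ry12 and Tyrobp had no row. Of the 4 with a row, Aif1 (1.54 ± 0.38, edgeR adjusted p = 0.00512) and Fcer1g (1.07 ± 0.40, adjusted p = 0.0425) were called higher. Cx3cr1 (0.05 ± 0.22) and Csf1r (0.11 ± 0.36) were not, nor was Fcer1g by DESeq2 (adjusted p = 0.0961). The Aif1 and Fcer1g rows may hold reads of same-strand neighbours, Prrc2a at 3.431 and Tomm40l at 1.548 times their counts. The 5 astrocyte markers summed to 44.2 to 45.4 CPM in OGD-miR-29 and 37.9 to 52.7 CPM in OGD-empty cultures, which overlapped. The 3 oligodendrocyte lineage markers summed to 13.5 to 17.3 CPM in OGD-miR-29 and 10.5 to 13.9 CPM in OGD-empty cultures, which overlapped. Of them Sox10 was called higher (1.14 ± 0.38, edgeR adjusted p = 0.0248), but not by DESeq2 (adjusted p = 0.0642). Mog (0.29 ± 0.30) and Mbp (-0.34 ± 0.39) were not called. The 2 proliferation markers with a row summed to 4.7 to 13.0 CPM in OGD-miR-29 and 12.3 to 13.1 CPM in OGD-empty cultures, which overlapped. Of them Mki67 was lower in OGD-miR-29 cultures (-1.06 ± 0.36, edgeR adjusted p = 0.0249), and Ccna2 was at 0.16 ± 0.38 (adjusted p = 0.767). Mki67 was not called without OGD-empty replicate 1 (adjusted p = 0.0616), nor without replicates 1 (0.126) and 2 (0.0943) of OGD-miR-29, nor by DESeq2 (0.0608). The part of cell makeup in the TET differences was not tested.

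Around these enzymes, 45 of 64 listed pathway genes were tested, and 14 were called in OGD-miR-29 against OGD-empty, 7 higher and 7 lower. That share of 31.1% stands beside 37.1% of all genes, of which 17.2% were called higher and 19.9% lower. Among methyl-CpG binding proteins and their domain relatives, 4 of 9 were called lower and 1 higher (list median -0.60). Zbtb38 (-1.08 ± 0.28) and Zbtb4 (-0.86 ± 0.26), zinc finger proteins that bind methylated DNA, were lower, with edgeR adjusted p-values of 0.00557 and 0.0157. Mbd5 had 33.3, 34.7 and 34.1 CPM in OGD-miR-29 and 42.9, 109.3 and 54.1 CPM in OGD-empty cultures and was lower (adjusted p = 0.0114). Mbd6, a methyl-CpG-binding-domain protein, had 48.7, 55.5 and 73.1 CPM in OGD-miR-29 and 25.2, 30.3 and 23.6 CPM in OGD-empty cultures and was higher (1.16 ± 0.21, adjusted p = 0.000683). Mbd6 and Zbtb4 were also called in the length-corrected block fit (0.76, adjusted p = 0.00344; -1.02, adjusted p = 0.00271), while Zbtb38 (-0.70, adjusted p = 0.0530) was not. Mbd5, which spans 375.9 kb, turned to 0.38 (adjusted p = 0.102). Mbd5 was not called without OGD-empty replicate 2 (-0.52, adjusted p = 0.0520), and Zbtb4 was not called without OGD-empty replicate 1 (0.0597) or replicates 1 (0.0681) or 2 (0.0545) of OGD-miR-29.

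Among 10 tested genes of other demethylation routes and TET partners, 3 were called higher and 1 lower (list median 0.44). Of all genes, 17.2% were called higher and 19.9% lower. Cxxc4, which arose from the CXXC domain of an ancestral Tet2 gene and is known to lower TET2 protein, had 2.94, 1.58 and 1.44 CPM in OGD-miR-29 and 8.80, 6.77 and 5.90 CPM in OGD-empty cultures. It was lower by edgeR (-1.74 ± 0.39, adjusted p = 0.00246), from 16, 4 and 3 counts in OGD-miR-29 libraries, and also in the length-corrected block fit (-1.79 ± 0.36, adjusted p = 0.000389). Gadd45g, a stress-induced gene with a reported role in demethylation, had 5.69, 7.09 and 8.65 CPM in OGD-miR-29 and 2.78, 3.16 and 2.68 CPM in OGD-empty cultures (1.26 ± 0.34, adjusted p = 0.00781). Idh1, which makes the oxoglutarate that TET enzymes consume, was higher (0.74 ± 0.24, adjusted p = 0.0215). Idh1 was also called in the length-corrected block fit (0.75, adjusted p = 0.00505), and Gadd45g was not (0.80, adjusted p = 0.0744). Idh1 was not called without OGD-empty replicate 2 (0.49, adjusted p = 0.0859) or OGD-miR-29 replicate 3 (0.64, adjusted p = 0.0773).

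Of 9 tested base excision repair genes, which finish the work of Tdg, 2 were called higher and 0 lower (list median 0.28). These counts stand beside 17.2% and 19.9% of all genes. Ogg1, a glycosylase for oxidised guanine, was at 1.20 ± 0.34 (edgeR adjusted p = 0.0106), and the abasic-site nuclease Apex1 was at 0.64 ± 0.24 (adjusted p = 0.0395; named after its value was seen). In the length-corrected block fit they were at 0.86 (adjusted p = 0.0603) and 0.21 (adjusted p = 0.540). Apex1 was not called by DESeq2 (adjusted p = 0.114), nor without OGD-empty replicate 1 (0.0833), 2 (0.0772) or 3 (0.0893), or OGD-miR-29 replicate 2 (0.135) or 3 (0.0524).

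Of 11 methyl donor genes, 2 were called lower and 0 higher (list median -0.15). Of 6 methylation cofactor genes, 1 was called higher (list median 0.23). Among all genes the shares were 19.9% lower and 17.2% higher. The methyl donor genes called lower were Ahcyl1 (-0.89 ± 0.24, edgeR adjusted p = 0.00681) and Ahcyl2 (-0.55 ± 0.20, adjusted p = 0.0318). Both are relatives of the enzyme that clears S-adenosylhomocysteine and are best known as partners of the inositol trisphosphate receptor. In the length-corrected block fit, Ahcyl1 was still called (-0.80, adjusted p = 0.00615), while Ahcyl2 turned to 0.21 (adjusted p = 0.420). Ahcyl2 was not called by DESeq2 (adjusted p = 0.0700), nor without sham-miR-29 replicate 1 (0.0553), OGD-empty replicate 2 (0.0913) or OGD-miR-29 replicate 1 (0.122), 2 (0.0558) or 3 (0.0597). The cofactor called higher was Trim28, a corepressor that protects methylation at imprinted loci (0.59 ± 0.22, edgeR adjusted p = 0.0371, DESeq2 adjusted p = 0.0789). It was not called when any 1 of the 6 OGD libraries was left out, with adjusted p-values of 0.0510 to 0.0993, but was called in the length-corrected block fit (0.64, adjusted p = 0.0143).

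Several of these rows can hold reads of a neighbour within the gene or 10 kb downstream that had over 0.5 of the gene's own count. Such neighbours included Dctn2 for Mbd6 (ratio 1.171), Chrnb1 for Zbtb4 (0.902), Orc4 for Mbd5 (0.526), Camk1 for Ogg1 (1.081), Pip4p1 for Apex1 (1.005) and Ube2m for Trim28 (0.993), each on the opposite strand.

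In the other comparisons of 2 groups, edgeR called 0 of the 45 pathway genes. In OGD-empty against sham-empty, 6 of them had an unadjusted edgeR p under 0.05, beside 2876 of all 12119 genes, and DESeq2 called 0. The largest differences there were Neil2 (1.51 ± 0.67), Mbd5 (1.02 ± 0.34) and the OGT partner Hcfc1 (0.99 ± 0.47), with adjusted p-values of 0.176, 0.0845 and 0.203; with the block Mbd5 and Idh1 were called. The Neil2 row lies beside Fdft1 on the same strand, which held 19.39 times its count. In OGD-miR-29 against sham-miR-29 and in sham-miR-29 against sham-empty, 2 pathway genes each had an unadjusted edgeR p under 0.05. Among all genes 1111 and 405 had one, and DESeq2 called 0 pathway genes in either comparison. In the interaction Mbd6 was called (1.31 ± 0.31, edgeR adjusted p = 0.0177; 0.0593 and 0.119 without sham-empty replicate 1 and 2).

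**Figure D5:**
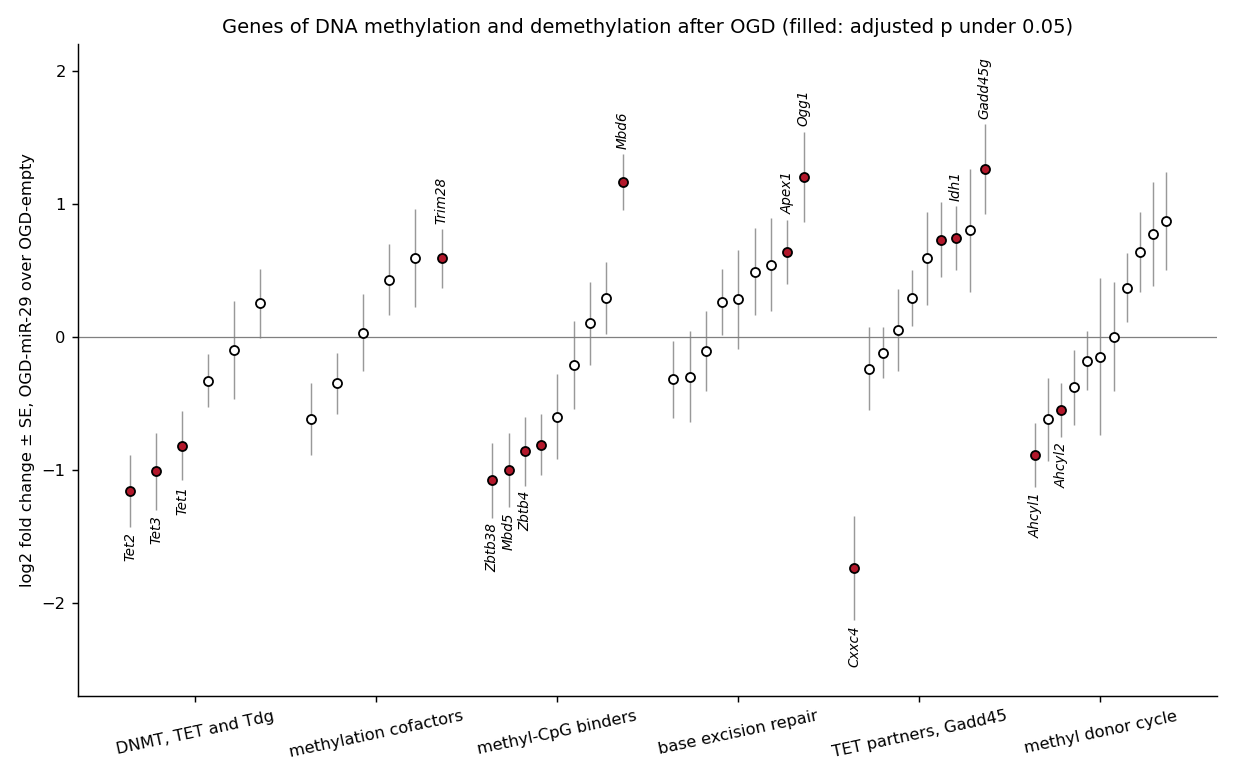
Log2 fold change with SE (vertical axis) of OGD-miR-29 over OGD-empty for the 6 enzymes and the tested genes of 5 related lists, sorted within a list. Each point is a gene; filled points had an adjusted p under 0.05, and those described in the text are labelled. The filled points of the TET genes and of 4 methyl-CpG binders lie below 0, Cxxc4 has the lowest value, and Gadd45g, Ogg1 and Mbd6 the highest.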

How the data were processed

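Raw counts of reads for each gene symbol were deposited by the authors. The submitters' processing notes name the build mm10 and the tools featureCounts 1.4.3-p1, STAR 2.5.0a and edgeR, with no role; the annotation, strand setting and counting region are not given in the sources used here. Per the labels' protocols, total RNA was DNase-treated, depleted of ribosomal RNA and made into TruSeq libraries. Per the file headers, the authors' deposited comparison tables hold per gene a p-value, an FDR, a log2 fold change and a likelihood ratio score. Per-sample columns left unmapped numbered 0.

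Counts were tested with edgeR 4.0.16 (R 4.3.3; TMM, filterByExpr, robust quasi-likelihood F test, limma 3.58.1) in 1 fit of 4 group means over 11 libraries, with Benjamini-Hochberg adjustment over 12119 genes and a threshold of 0.05. The SE was taken from F, as log2 fold change over its root. The fit was also run on counts simulated with its own estimates of spread and without a length trend, a day effect or shared reads. That run cannot show how the fit handles these features. Column 3 of sham-empty was left out because it is not read counts. Same-numbered libraries share a dissection day per the design text, so day entered as a block in an alternative fit; deviations from group means correlated at -0.09 to 0.23 (median 0.01) in 15 same-numbered pairs and at -0.24 to 0.20 in 30 others. P-values measure the spread between these cultures.

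Alternatives were DESeq2 1.42.0 size factors, its Wald test, no filter, no mitochondrial rows, the block, a loess trend on log10 gene span (span 0.5) removed per library, and each library left out. Gene names were matched to GENCODE M21 (GRCm38): 11356 by symbol and 591 by an older symbol, with 198 unmatched. Seed matches used the longest annotated 3′ UTR. All 6 enzymes were named whatever their values; from the pathway lists, up to 12 called genes with the smallest adjusted p and 3 uncalled genes with the largest change per comparison. Likeness used genes with a mean count of at least 10 and log2 CPM with a prior count of 2. The members and lists were chosen with earlier results of these data known. A few genes that these rules select are not reported here.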

Additional observations from a re-analysis of the deposited data

Results flagged for a closer look

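The OGD effect on Tet2 differed between the viruses by -1.50 ± 0.44 on the log2 scale, miR-29 virus minus empty virus (edgeR interaction, adjusted p = 0.0400). Tet2 averaged 9.89 CPM in OGD-miR-29 against 14.7 CPM in sham-miR-29 cultures, and 22.8 CPM in OGD-empty against 11.1 CPM in sham-empty cultures.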

How the results depend on the processing

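With the replicate block (dissection day), edgeR called 1369 genes and 1 enzyme (Tet2) in OGD-empty against sham-empty, against 617 and 0 without it. The block also gave 5 called genes in OGD-miR-29 against sham-miR-29 (2 without it), and 3 enzymes called in the interaction (1 without it). It changed no other call of the 6 enzymes. Removing the length trend left 2865 genes and 1 enzyme called in OGD-miR-29 against OGD-empty (4501 and 3 before), 377 in OGD-empty against sham-empty, 18 in OGD-miR-29 against sham-miR-29, and 0 enzymes in the interaction. With the trend removed and the replicate block these were 1 enzyme, 27 genes and 0 enzymes. The share of higher calls in OGD-empty against sham-empty was 29% in the first fit, 50.3% with the block and 24.7% with the trend removed; in the interaction it was 56.4% in the first fit and 66.3% with the trend removed. DESeq2 called 2 enzymes in OGD-miR-29 against OGD-empty.

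Dnmt3a, never called, turned to 0.28 in OGD-miR-29 against OGD-empty, -0.43 (-0.41 with the replicate block) in OGD-empty against sham-empty, 0.05 in OGD-miR-29 against sham-miR-29 and 0.48 (0.46) in the interaction once the trend was removed. Other size factors, no filter and no mitochondrial rows reversed no enzyme and changed no enzyme's call. The cause of these moves was not tested.

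Leaving out 1 library at a time, 1 to 3 enzymes were called in OGD-miR-29 against OGD-empty and 0 to 3 in the interaction. All genes called ranged over 12 to 984 in OGD-empty against sham-empty (lowest without sham-empty replicate 1) and over 2 to 21 in OGD-miR-29 against sham-miR-29. Values that changed sign were Tdg in OGD-miR-29 against OGD-empty (-0.27 to 0.07), and Dnmt1 (-0.89 to 0.02) and Dnmt3a (-0.05 to 0.12) in OGD-empty against sham-empty. Tdg was tested in only 9 of the 11 fits with a library left out, and did not pass the filter on low counts in the rest. In OGD-miR-29 against sham-miR-29 Dnmt3a ranged over -0.27 to 0.10, and in the interaction over -0.28 to 0.06. In sham-miR-29 against sham-empty Dnmt1 ranged over -0.90 to 0.00 and Tet3 over -0.01 to 0.62. None of these was called. Depth limits Tdg and Tet1 most, with 4 and 6 counts in their lowest libraries.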

Other observations

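In the authors' deposited table of OGD-miR-29 against sham-empty, which was not compared in the report, the log2 fold changes were 0.0815 for Tet2, 0.0192 for Tet1, -0.3617 for Tet3, 0.1691 for Dnmt3a, -0.2735 for Dnmt1 and -0.3548 for Tdg, all with a false discovery rate of 0.9697 or more.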
